A study of Homo sapiens with 12 samples.

Results

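Integrins are paired alpha and beta receptors that bind the extracellular matrix, and focal adhesion proteins are the adaptors, kinases and actin linkers that gather at their cytoplasmic tails. The transcripts of 35 such genes, 17 integrin subunits and 18 intracellular focal adhesion proteins, were examined in SW13 cells. Each gene was represented by its brightest probe set among those that belong to that gene alone, judged by the mean log2 signal over 12 arrays. Of the 35 genes, 34 had such a probe set, out of 19775 genes on the array, and 30 were tested, out of 13784. ITGB6 was measured only by probe sets that it shares with another gene and was not analysed, and ITGA4, ITGA8, ITGA11 and LIMS1 did not pass the filter on low signals. To pass, a probe set had to reach the array median on at least 3 arrays. Of the 30 genes tested, 5 (ITGA2, ITGA3, ITGB8, TNS1 and TNS3) passed it only through the BRG1-labelled line, 1 only through the vector-labelled line and 23 through each line alone.

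An integrin binds its ligand outside the cell with both subunits and, once talin and kindlin occupy the beta tail, is held to actin through vinculin and the complex of ILK, PINCH and parvin. Focal adhesion kinase, Src, paxillin and p130Cas carry signals from the site, and LIM proteins of the zyxin family together with tensins tie it to stress fibres. The alpha subunit largely sets the ligand: alpha 1, alpha 2, alpha 10 and alpha 11 bind collagens, alpha 3, alpha 6 and alpha 7 laminins, and alpha 5, alpha 8 and alpha V the arginine-glycine-aspartate motif of fibronectin and related proteins.

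SW13 is a line from an adrenal cortical carcinoma that lacks BRG1 (SMARCA4), the ATPase of SWI/SNF chromatin remodelling complexes. The samples were a stable line with the empty plasmid pREP7, called vector-labelled here, and a stable line with pREP7 that carries BRG1, called BRG1-labelled. Cells of each line received 10 J/m2 of UV or a mock treatment, and RNA was taken after 6 h, with 3 arrays in each of the 4 groups. Each condition comes from a single stable line, so the arrays of a group repeat that line, and an effect of BRG1 cannot be told apart from other differences between the lines. P values measure the spread between these arrays.

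The signal of the targeted gene was mostly lower in the BRG1-labelled line: in mock-treated cells 5 of 7 tested SMARCA4 probe sets lay below 0 and none was called higher. On the brightest SMARCA4 probe set the mock-treated vector-labelled arrays read 314, 383 and 920 and the BRG1-labelled ones 143, 161 and 336, a log2 fold change of -1.28 (standard error 0.42), and after UV it was -1.22, both called lower with p adjusted over genes. Another had -0.77 and -0.78, under the fold threshold. A dimmer SMARCA4 probe set was higher after UV in the BRG1-labelled line, by 2.20 (standard error 0.45). With p adjusted over all tested probe sets in limma, as in the count of 7, the brightest was called in mock-treated cells (0.0459) but not after UV (0.0511). The only SMARCA4 probe set called after UV was then the dimmer, higher one (0.00284). The study also examined the BRG1 protein by Western blot and saw it in the line labelled with it. Which part of the transcript each probe set reads was not tested. The lines also differed in marker transcripts, whose part in the results below was not tested. In mock-treated arrays the summed signal of 5 mesenchymal markers was 558 to 658 in the vector-labelled and 8590 to 12089 in the BRG1-labelled line, that of 5 epithelial markers 253 to 277 against 3265 to 5122, and that of 6 blood cell markers 420 to 488 against 60.2 to 108. Sums of 8 fibroblast markers were 1629 to 2215 and 1799 to 1939, and those of 5 endothelial markers 79.8 to 125 and 70.5 to 81.0. The sums hide opposite changes: among fibroblast markers COL1A1 and THY1 were higher (log2 fold changes of 2.18 and 2.01) and LUM was lower (-3.14). The mesenchymal marker ZEB2 had -0.996 and was not called, while the other 4 were called higher. In each line 3 of the 5 epithelial markers lay under the array median on every mock-treated array. Of the adrenal cortex, 8 markers summed to 77.5 to 101 and 82.0 to 139, and 6 and 5 of them lay under the array median on every mock-treated array of the line. Array medians lay between 21.1 and 25.3. GAPDH and ACTB, used as reference genes, were not called in any comparison.

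In mock-treated cells, 14 of the 30 genes were higher in the BRG1-labelled line, beside 9.38% of all genes tested, and 1 was lower, beside 5.27%. A gene was called higher or lower when its adjusted p in limma was under 0.05 over all genes tested and its fold change was over 2. The integrin subunits ITGA2, ITGA3, ITGA5, ITGA6, ITGB5 and ITGB8, the adaptors PXN, BCAR1 and TGFB1I1, the ILK partner PARVA, the tensins TNS1 and TNS3, and the LIM proteins LPP and FBLIM1 were higher, and ITGAV was lower. A gene that passes the filter only through the BRG1-labelled line is likely to be higher there by that choice, so part of these counts is set by the filter: without those 5 genes, 9 of 25 were called higher in mock-treated and 8 of 25 in UV-treated cells. The shares of all genes given here still include genes of that kind and are no match for these smaller counts. After UV, 12 were higher, beside 9.85% of all genes, and 2 were lower, beside 6.86%. TNS1, BCAR1 and FBLIM1 were not called after UV, ILK was called higher, and FERMT2 joined ITGAV among the lower. The median log2 fold change of the 30 genes was 1.02 in mock-treated and 0.82 in UV-treated cells, beside medians of all genes of 0.0015 and -0.017. In each of these comparisons 24 of the 30 lay above 0. These medians and counts include the 5 genes that passed the filter only through the BRG1-labelled line, which all lay above 0 in both. Without the arrays numbered 3, counts were 13 higher and 1 lower in mock-treated and 13 higher and 3 lower in UV-treated cells. No share of all genes is given for that setting.

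**Figure D1:**
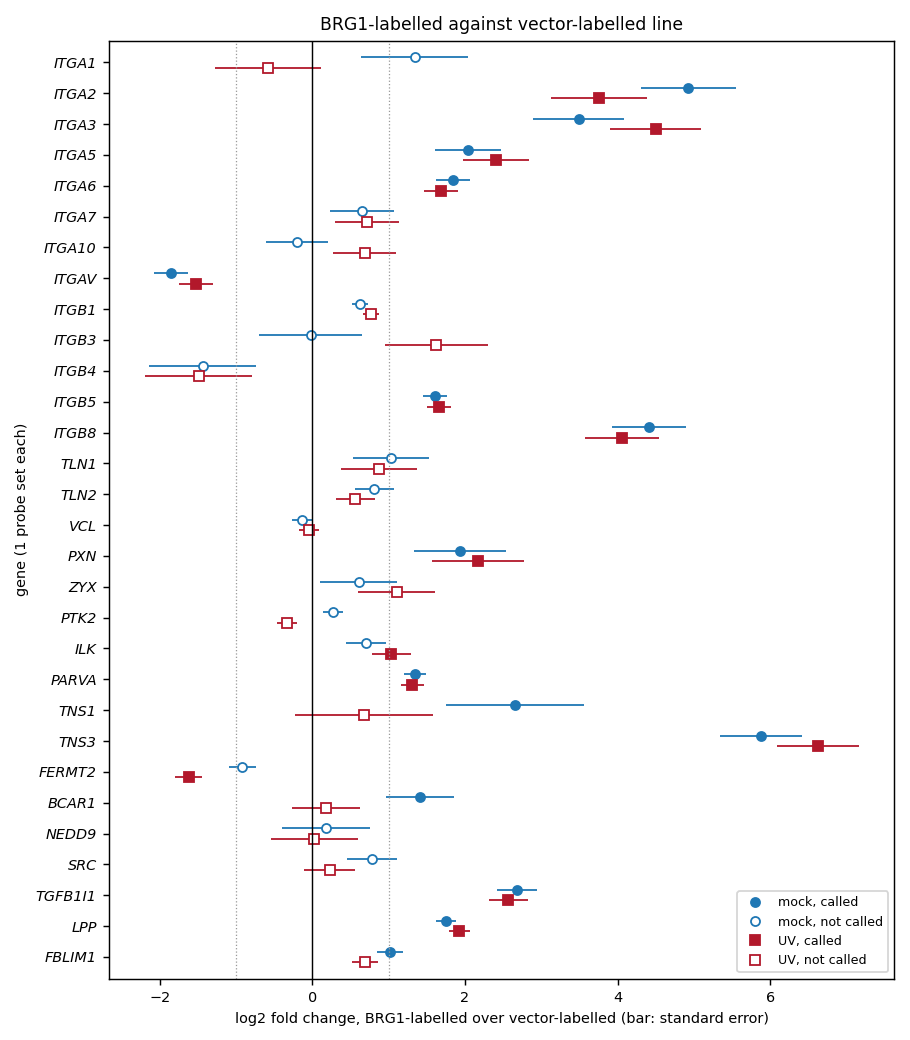
Log2 fold change of the BRG1-labelled over the vector-labelled line for the 30 genes tested, in mock-treated (blue circles) and UV-treated cells (red squares), with standard errors as bars. Filled symbols mark called genes and dotted lines a fold of 2, and TNS3, whose vector-labelled signals are all under the 40th percentile of their array, lies farthest right at 5.88 and 6.62 while ITGAV lies left of 0 at -1.85 and -1.53.

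Promoters are shown for genes that differed between the lines: ITGA2 and ITGB8, which were higher and have a single listed start, ITGAV and FERMT2, which were lower, and TGFB1I1 and FBLIM1, which hold a CArG box, the site of serum response factor. Each line gives the 250 bases before a transcription start, on the strand of the gene, from RefSeq on GRCh38.p14, with capitals for GC boxes (GGGCGG, either strand) and CArG boxes.
ITGA2, chr5:52989102-52989351, plus strand: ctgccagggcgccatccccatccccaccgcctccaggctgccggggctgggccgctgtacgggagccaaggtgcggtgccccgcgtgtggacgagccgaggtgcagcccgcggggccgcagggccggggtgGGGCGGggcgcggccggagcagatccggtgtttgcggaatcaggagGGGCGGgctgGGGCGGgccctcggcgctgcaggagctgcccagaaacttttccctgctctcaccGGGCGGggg
ITGB8, chr7:20330650-20330899, plus strand: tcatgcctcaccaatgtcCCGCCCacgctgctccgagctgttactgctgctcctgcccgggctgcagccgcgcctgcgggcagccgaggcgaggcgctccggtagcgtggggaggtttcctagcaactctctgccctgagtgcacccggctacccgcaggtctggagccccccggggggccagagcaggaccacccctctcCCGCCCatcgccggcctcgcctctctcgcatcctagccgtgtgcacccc
ITGAV, first start, chr2:186589806-186590055, plus strand: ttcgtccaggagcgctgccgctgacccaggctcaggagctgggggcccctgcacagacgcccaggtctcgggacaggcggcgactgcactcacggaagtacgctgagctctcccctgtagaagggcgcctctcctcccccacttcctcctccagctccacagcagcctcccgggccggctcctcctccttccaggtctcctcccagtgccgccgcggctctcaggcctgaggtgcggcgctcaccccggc
FERMT2, chr14:52951051-52951300, minus strand: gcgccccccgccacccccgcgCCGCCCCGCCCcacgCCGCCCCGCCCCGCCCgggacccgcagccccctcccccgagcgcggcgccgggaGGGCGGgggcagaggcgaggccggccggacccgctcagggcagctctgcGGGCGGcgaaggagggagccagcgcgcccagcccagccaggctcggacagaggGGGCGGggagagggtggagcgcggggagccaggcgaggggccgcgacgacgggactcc
TGFB1I1, start 3, chr16:31472955-31473204, plus strand: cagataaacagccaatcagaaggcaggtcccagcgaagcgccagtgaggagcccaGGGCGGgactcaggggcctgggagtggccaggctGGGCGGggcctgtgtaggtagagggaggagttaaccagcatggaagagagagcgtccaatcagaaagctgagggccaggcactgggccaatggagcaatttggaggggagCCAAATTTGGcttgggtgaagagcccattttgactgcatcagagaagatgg
FBLIM1, start 2, chr1:15758545-15758794, plus strand: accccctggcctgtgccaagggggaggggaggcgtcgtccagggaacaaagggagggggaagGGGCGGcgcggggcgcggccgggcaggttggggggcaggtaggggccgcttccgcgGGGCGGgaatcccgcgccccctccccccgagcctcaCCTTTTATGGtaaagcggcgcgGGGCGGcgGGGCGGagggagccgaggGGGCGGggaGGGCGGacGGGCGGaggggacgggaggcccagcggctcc
The promoter of ITGA2, higher in the BRG1-labelled line, held 4 GC boxes, that of FERMT2, lower there, held 8, and the first ITGAV promoter held none.

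RefSeq promoters were matched for 28 of the 35 genes, with 59 starts. ITGA3, ITGA7, ITGB3, ITGB4, PTK2, PARVA and SRC were not matched. A GC box stood in 52.5% of these 59 promoters and in 42.6% of all 35114 promoters of the same length. The AP-1 motif TGANTCA stood in 8.47% and 6.57%, and the TEAD motif GGAATG in 15.3% and 11.9%, searched on both strands. A CArG box stood in 4 of the 59, or 6.78%, and in 1.16% of all promoters. These 4 belong to ITGB6, TGFB1I1, LPP and FBLIM1. Starts of a gene can overlap, and the matches are letters in a window that were not tested for binding.

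Among the collagen receptors, ITGA2, the alpha subunit that pairs with beta 1, gave signals of 6.03, 19.7 and 2.81 in mock-treated vector-labelled cells and of 202, 235 and 199 in BRG1-labelled cells. After UV the values were 6.41, 25.9 and 11.4 against 211, 181 and 122. Every BRG1-labelled array was above every vector-labelled one, though ITGA2 passed the filter only through the BRG1-labelled line. The log2 fold changes were 4.93 (standard error 0.63, adjusted p = 5.76e-05 in limma) and 3.75 (standard error 0.63, adjusted p = 0.000451). Since 2 of the 3 vector-labelled arrays lay under the 40th percentile of their array in each comparison, the fold was also taken with signals under that percentile set to it, which gave 13.2-fold and 9.32-fold. The other probe set of ITGA2 was called higher as well, with log2 fold changes of 6.58 and 7.31. ITGA1 and ITGA10, which also bind collagens, were not called between the lines, with log2 fold changes of 1.34 and -0.20 in mock-treated and -0.58 and 0.69 in UV-treated cells.

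The laminin-binding subunits ITGA3 and ITGA6 were both higher in the BRG1-labelled line. ITGA3 read 20.2, 12.4 and 47.2 in mock-treated vector-labelled cells and 185, 184 and 491 in BRG1-labelled cells, and after UV 7.40, 10.7 and 34.7 against 256, 280 and 441. The groups did not overlap, and array 3 was the brightest in each of them. ITGA3 passed the filter only through the BRG1-labelled line, so part of this separation is set by the filter. ITGA3 rose by 3.49 (standard error 0.60, adjusted p = 0.000644) and by 4.50 after UV (standard error 0.60, adjusted p = 7.46e-05). With low signals, those of 1 and 2 vector-labelled arrays, set to the 40th percentile these came to 10.4-fold and 15.4-fold. ITGA6 went from 183, 190 and 164 to 736, 739 and 485 in mock-treated cells and from 148, 179 and 118 to 522, 567 and 354 in UV-treated cells. Array 3 was the dimmest of each group for ITGA6, and the lines again did not overlap. Its log2 fold changes were 1.85 (standard error 0.22, adjusted p = 3.78e-05) and 1.69 (standard error 0.22, adjusted p = 7.03e-05). ITGA7, known from muscle, had 0.65 and 0.72 and was not called.

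The fibronectin receptor subunit ITGA5 and the vitronectin receptor subunit ITGAV moved in opposite directions. ITGA5 read 60.8, 53.8 and 102 in mock-treated vector-labelled cells and 205, 205 and 551 in BRG1-labelled cells, with 50.7, 43.5 and 76.7 against 222, 222 and 518 after UV. Array 3 was again the brightest in every group, and the lowest BRG1-labelled array stood above the highest vector-labelled one. The changes were 2.04 (standard error 0.43, adjusted p = 0.00293) and 2.41 (standard error 0.43, adjusted p = 0.000765). ITGAV fell from 3051, 3072 and 3442 to 1100, 1006 and 618 in mock-treated cells, and read 2319, 2574 and 1910 against 915, 931 and 559 after UV. No array of the BRG1-labelled line reached the vector-labelled values. Its log2 fold changes were -1.85 (standard error 0.23, adjusted p = 3.87e-05) and -1.53 (standard error 0.23, adjusted p = 0.000165), and none of the fits that left out 1 array lost either call.

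Of the beta subunits, ITGB5 and ITGB8, both known partners of alpha V, were higher in the BRG1-labelled line. ITGB5 read 181, 184 and 139 in mock-treated vector-labelled and 527, 504 and 493 in BRG1-labelled cells, and 185, 195 and 143 against 514, 600 and 530 after UV. ITGB8, which is known for activating latent TGF-β, read 37.0, 14.1 and 13.6 against 612, 589 and 190, and after UV 18.6, 11.6 and 17.2 against 273, 342 and 181. Neither gene overlapped between the lines in either treatment, although array 3 of mock-treated BRG1-labelled cells was well below the other two for ITGB8. ITGB8 passed the filter only through the BRG1-labelled line. The log2 fold changes of ITGB5 were 1.61 (standard error 0.16, adjusted p = 6.82e-06) and 1.66 (standard error 0.16, adjusted p = 5.00e-06), with 1 of its 4 tested probe sets called. Those of ITGB8 were 4.41 (standard error 0.48, adjusted p = 1.57e-05) and 4.05 (standard error 0.48, adjusted p = 3.02e-05), with 2 of 4 called, or 20.5-fold and 15.2-fold with low signals set to the 40th percentile.

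ITGB1, the partner shared by most alpha subunits, was higher by less than the fold threshold on its brightest probe set. Its signals were 3892, 4495 and 3534 in mock-treated vector-labelled and 6393, 6453 and 5501 in BRG1-labelled cells, and 3975, 4410 and 4184 against 7718, 6959 and 6738 after UV. The groups were apart in both treatments. The log2 fold changes of 0.63 (standard error 0.10, adjusted p = 0.000497) and 0.77 (standard error 0.10, adjusted p = 8.46e-05) passed the adjusted p but not the fold. Of its 4 tested probe sets, 2 others were called higher in both comparisons, with 1.25 and 1.14 in mock-treated cells. ITGB3 had values of -0.020 and 1.63 and was not called on its brightest probe set, while 1 of its 3 tested probe sets was called higher in both comparisons. After UV ITGB3 was called higher without the arrays numbered 3, without vector-labelled UV array 3 alone or with the mean over its probe sets. ITGB4, the partner of alpha 6 in hemidesmosomes, had -1.43 and -1.49 with standard errors of 0.70 and was not called. After UV ITGB4 was called lower without the arrays numbered 3 or without BRG1-labelled UV array 3 alone.

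**Figure D2:**
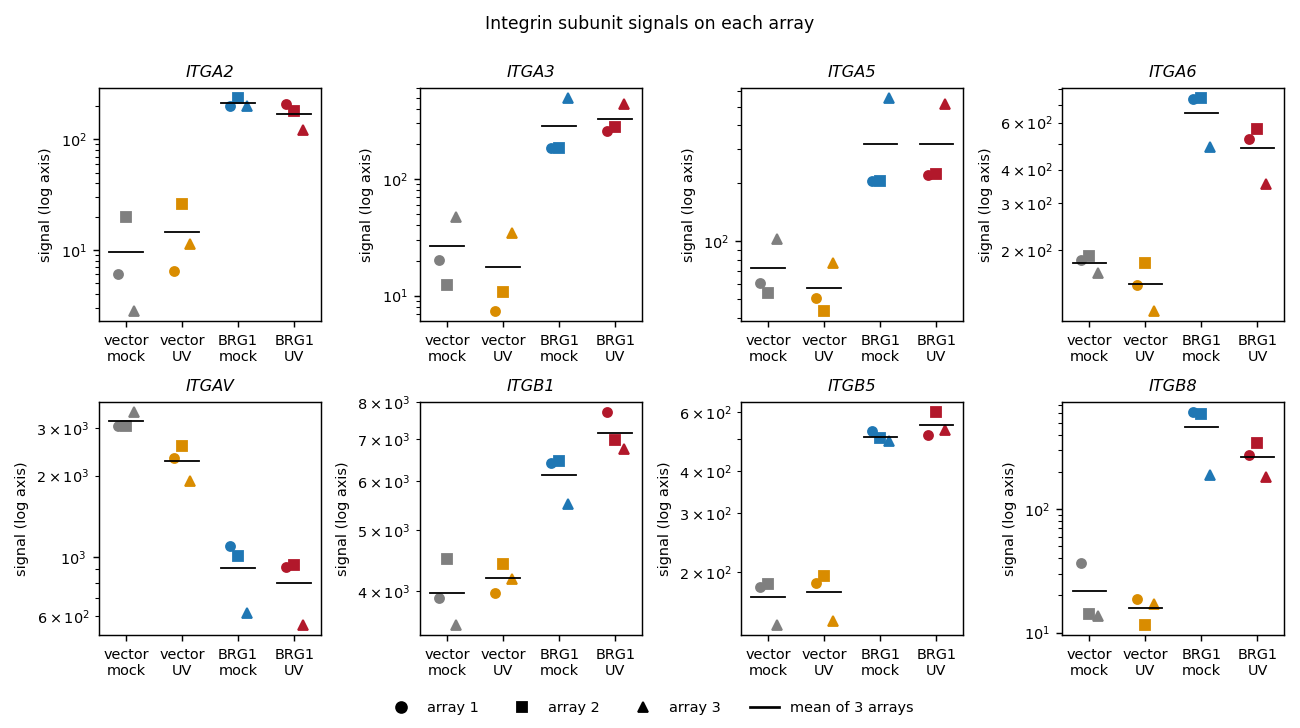
Signals of 8 integrin subunits on each of the 12 arrays (log axis, scaled to a target of 125), by line and treatment, with a symbol for each array number and a line at the mean of 3 arrays. ITGA2, ITGA3, ITGA5, ITGA6, ITGB5 and ITGB8 lie higher and ITGAV lower in the BRG1-labelled line, with no overlap between the lines.

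None of the integrin activators and actin linkers was called higher in the BRG1-labelled line. FERMT2 (kindlin-2), which binds beta tails beside talin, read 2143, 2206 and 1644 in mock-treated vector-labelled and 1112, 1234 and 844 in BRG1-labelled cells, and 1514, 1628 and 1194 against 505, 508 and 393 after UV. The lines did not overlap in either treatment. The log2 fold change was -0.92 in mock-treated cells (standard error 0.18, adjusted p = 0.00151), under the fold threshold, and -1.62 in UV-treated cells (standard error 0.18, adjusted p = 1.33e-05), where all 3 of its probe sets were called lower. VCL (vinculin) had signals of 1913 to 2726 over the 12 arrays, and its log2 fold changes were -0.13 and -0.046 (standard error of each 0.13). TLN1 (talin-1) had 1.03 and 0.87 (standard error 0.49) and was not called, and TLN2 had 0.81 and 0.57 (standard error 0.26). TLN2 passed the adjusted p in mock-treated cells (0.0302 in limma) with no overlap of the lines, but stayed under the fold threshold, and TLN1 did not overlap after UV. TLN1 was called higher in mock-treated cells when the arrays numbered 3 were left out, or with the array number as a replicate block (adjusted p = 0.0026 in limma).

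Of the complex that joins ILK to actin, PARVA (alpha-parvin) read 175, 151 and 197 in mock-treated vector-labelled and 439, 410 and 473 in BRG1-labelled cells, and 214, 257 and 236 against 641, 580 and 534 after UV. The lines were apart. Its log2 fold changes were 1.34 (standard error 0.15, adjusted p = 1.42e-05) and 1.31 (standard error 0.15, adjusted p = 1.60e-05), and 1 and 2 of its 7 tested probe sets were called in these comparisons. With the mean over its probe sets both changes were 0.88 (adjusted p = 0.0269 and 0.0254 in limma), under the fold threshold. ILK, the pseudokinase of the complex, read 373, 358 and 646 against 575, 665 and 973 in mock-treated cells, where the lines overlapped, and 447, 548 and 592 against 971, 880 and 1463 after UV, where they did not. Its changes were 0.70 (standard error 0.26, adjusted p = 0.0609) and 1.04 (standard error 0.26, adjusted p = 0.0078). The second call was lost in 2 of 12 fits that left out 1 array, without vector-labelled UV array 1 or BRG1-labelled UV array 3, where the lowest value was 0.82.

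TGFB1I1 (Hic-5), a LIM adaptor related to paxillin, was higher in the BRG1-labelled line. Its signals were 43.2, 46.7 and 79.8 in mock-treated vector-labelled and 320, 295 and 450 in BRG1-labelled cells, and 66.5, 85.3 and 101 against 467, 440 and 584 after UV. The lines did not overlap, and array 3 was the brightest in each group. The log2 fold changes were 2.68 (standard error 0.26, adjusted p = 5.07e-06) and 2.57 (standard error 0.26, adjusted p = 7.29e-06). PXN (paxillin) read 71.5, 38.8 and 189 against 224, 209 and 627, and after UV 40.2, 101 and 186 against 409, 380 and 439. Array 3 was the brightest of each group for PXN too, and the lines stayed apart. Its changes were 1.94 (standard error 0.60, adjusted p = 0.0276) and 2.17 (standard error 0.60, adjusted p = 0.0138), with 1 of 2 probe sets called. The mock call was lost without vector-labelled mock array 1 or 2 or BRG1-labelled mock array 3, and the UV call without vector-labelled UV array 1. Both were also lost under the study's own test without adjustment.

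BCAR1 (p130Cas), a docking protein phosphorylated by Src, read 20.3, 64.4 and 32.8 in mock-treated vector-labelled and 97.7, 66.8 and 124 in BRG1-labelled cells. The gap between the highest of the former and the lowest of the latter was small. Its change of 1.41 (standard error 0.45, adjusted p = 0.0297) lost its call without vector-labelled mock array 1 or 3 or BRG1-labelled mock array 1 or 3. The call was also lost without all arrays numbered 3 and under the study's own unadjusted test. After UV the change was 0.18 (standard error 0.45). PTK2 (focal adhesion kinase) had 0.27 and -0.33 (standard error 0.13), SRC 0.78 and 0.23 (standard error 0.33), and NEDD9, a relative of p130Cas, 0.18 and 0.027 (standard error 0.57). None of them was called between the lines on its brightest probe set, though a dimmer SRC probe set was called higher after UV.

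On the brightest probe sets, the largest fitted change of the 30 genes in both comparisons was that of TNS3 (tensin-3), which binds beta tails and actin. TNS3 read 11.5, 10.1 and 8.38 in mock-treated vector-labelled and 496, 570 and 711 in BRG1-labelled cells, and 3.32, 1.10 and 8.34 against 352, 290 and 287 after UV. All 6 vector-labelled arrays lay under the 40th percentile of their array, and TNS3, like TNS1, passed the filter only through the BRG1-labelled line. The log2 fold changes were 5.88 (standard error 0.54, adjusted p = 2.85e-06) and 6.62 (standard error 0.54, adjusted p = 8.97e-07), or 39.6-fold and 20.5-fold with low signals set to that percentile. TNS1 (tensin-1) read 3.90, 28.3 and 4.20 against 62.7, 51.1 and 36.5 in mock-treated cells, where the groups were apart, and 7.14, 23.2 and 21.7 against 52.1, 42.8 and 6.60 after UV, where they overlapped. Its mock change of 2.66 (standard error 0.90, adjusted p = 0.0417) came to 2.71-fold with low signals set to the percentile and its call was lost in 7 of 12 fits that left out 1 array: vector-labelled mock 1 or 3, vector-labelled UV 2, BRG1-labelled mock 1, 2 or 3, or BRG1-labelled UV 2. With p adjusted over all tested probe sets, 2 dimmer TNS1 probe sets were called and the brightest was not. The study's own unadjusted test did not call it.

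LPP, a zyxin relative that shuttles between adhesions and the nucleus, read 288, 283 and 249 in mock-treated vector-labelled and 956, 918 and 887 in BRG1-labelled cells, and 163, 176 and 165 against 626, 752 and 548 after UV. The lines were far apart relative to the spread within them. Its log2 fold changes were 1.75 (standard error 0.14, adjusted p = 6.60e-07) and 1.92 (standard error 0.14, adjusted p = 2.57e-07), and 5 and 4 of its 7 tested probe sets were called. FBLIM1 (migfilin), which links filamin to kindlin, read 124, 119 and 115 against 260, 213 and 255, and after UV 170, 129 and 138 against 249, 251 and 204. The lines did not overlap. Its mock change of 1.02 (standard error 0.17, adjusted p = 0.000506) lay just over the fold threshold and was lost without vector-labelled mock array 3 or BRG1-labelled mock array 1 or 3, and after UV it was 0.69 (standard error 0.17, adjusted p = 0.00675). ZYX (zyxin) itself had 0.61 and 1.11 (standard error 0.50) and was not called, except after UV with the array number as a replicate block (adjusted p = 0.000123 in limma).

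**Figure D3:**
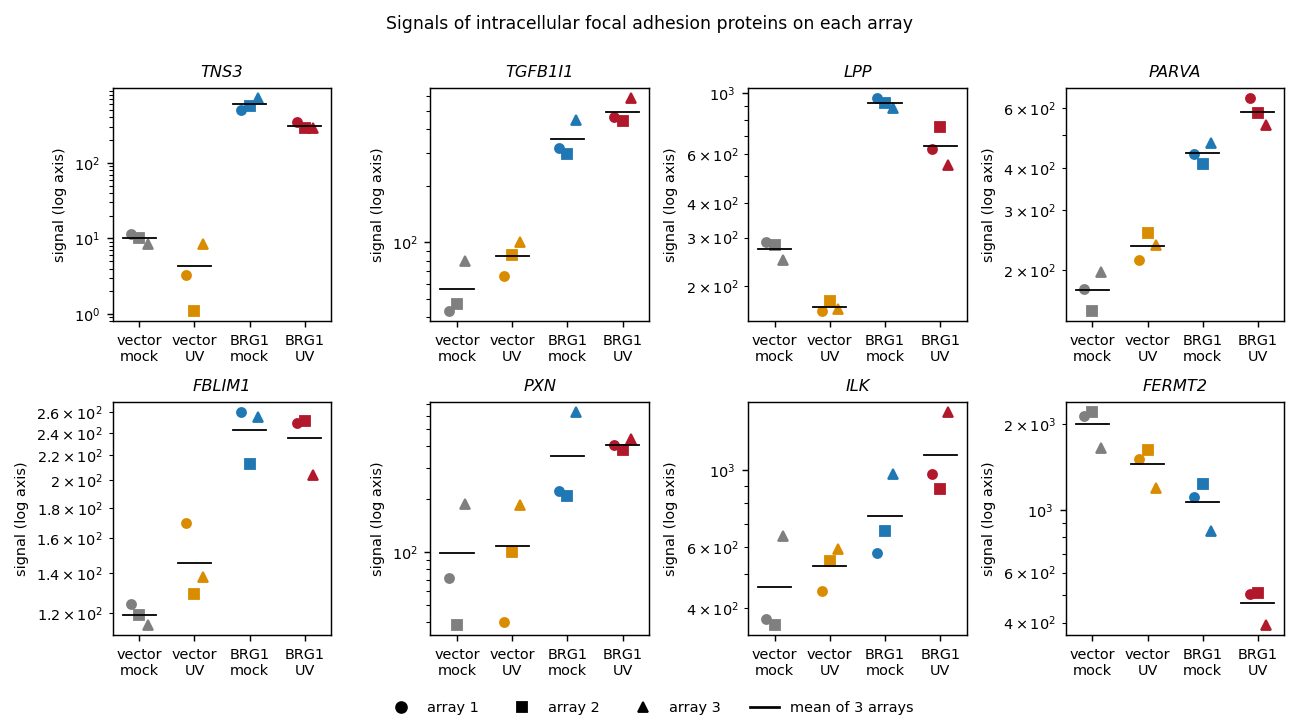
Signals of 8 intracellular focal adhesion proteins on each of the 12 arrays (log axis, scaled to a target of 125), by line and treatment, with a symbol for each array number and a line at the mean of 3 arrays. TNS3 spans the widest range, from 1.10 to 711, and FERMT2 is lower in the BRG1-labelled line and lowest there after UV, at 393 to 508.

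Between the lines, 18 of the 30 genes were higher and 2 lower with no overlap in mock-treated cells, beside 21.6% and 19.7% of all genes, and 18 and 2 in UV-treated cells, beside 23% and 22.4%. Part of these counts is set by the filter. ITGA2, ITGA3, ITGB8 and TNS3 in both treatments, and TNS1 in mock-treated cells, are counted here but passed it only through the BRG1-labelled line.

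At 6 h after UV the counts of called genes were close to those that the shares of all genes give for 30 genes. In the vector-labelled line 0 of 30 were called higher, beside 0.66% of all genes, and 0 lower, beside 4.16%. At an unadjusted p under 0.05 in limma there were 8, a count for which no share of all genes is given. In the BRG1-labelled line ITGA10 was called higher, beside 0.609%, and FERMT2 lower, beside 6.57%. The median log2 fold changes of UV over mock were 0.068 and -0.032 in the vector-labelled and BRG1-labelled line, beside 0.027 and 0.032 for all genes.

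FERMT2 fell with UV from 1112, 1234 and 844 to 505, 508 and 393 in the BRG1-labelled line, with no overlap, and all 3 of its probe sets were called lower. The change was -1.17 (standard error 0.18, adjusted p = 0.000533), and its call was lost in none of the fits without 1 array. In the vector-labelled line it was -0.47 (standard error 0.18, adjusted p = 0.0991). The difference between these UV effects was -0.71 (standard error 0.25, adjusted p = 0.648) and not called, while a fit without the arrays numbered 3 gave -0.74 with an adjusted p of 0.0061 and a replicate block by array number -0.71 with 0.00429 in limma.

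ITGA10, a collagen receptor subunit of cartilage, read 34.6, 18.8 and 13.8 in mock-treated and 48.0, 45.5 and 55.8 in UV-treated BRG1-labelled cells, near the medians of the arrays. The change of 1.25 (standard error 0.41, adjusted p = 0.0482) was lost in 10 of 12 fits without 1 array, the exceptions being those without vector-labelled mock array 3 or BRG1-labelled mock array 1. PTK2 read 574, 552 and 547 in mock-treated and 313, 371 and 287 in UV-treated BRG1-labelled cells, a change of -0.79 (standard error 0.13, adjusted p = 0.00112) under the fold threshold. LPP had -0.70 (standard error 0.14, adjusted p = 0.0049) in the vector-labelled and -0.53 (standard error 0.14, adjusted p = 0.015) in the BRG1-labelled line, also under it. TNS3 had -1.67 (standard error 0.54, adjusted p = 0.0559) in the vector-labelled line, all at low signals, and was called lower there with the array number as a replicate block (adjusted p = 0.0233 in limma), and ITGB3 had -1.83 there (standard error 0.68, adjusted p = 0.092). A dimmer TLN1 probe set was called higher after UV in the BRG1-labelled line, with 1.20, while the brightest had -0.015.

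The UV effects of the 30 genes were not called as different between the lines. By limma 0 passed the adjusted p, beside 0.0943% of all genes, and the smallest adjusted p was 0.585, for PTK2. An unadjusted p under 0.05 in limma was found for 2 of them (FERMT2 and PTK2), and no share of all genes is given for it.

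**Figure D4:**
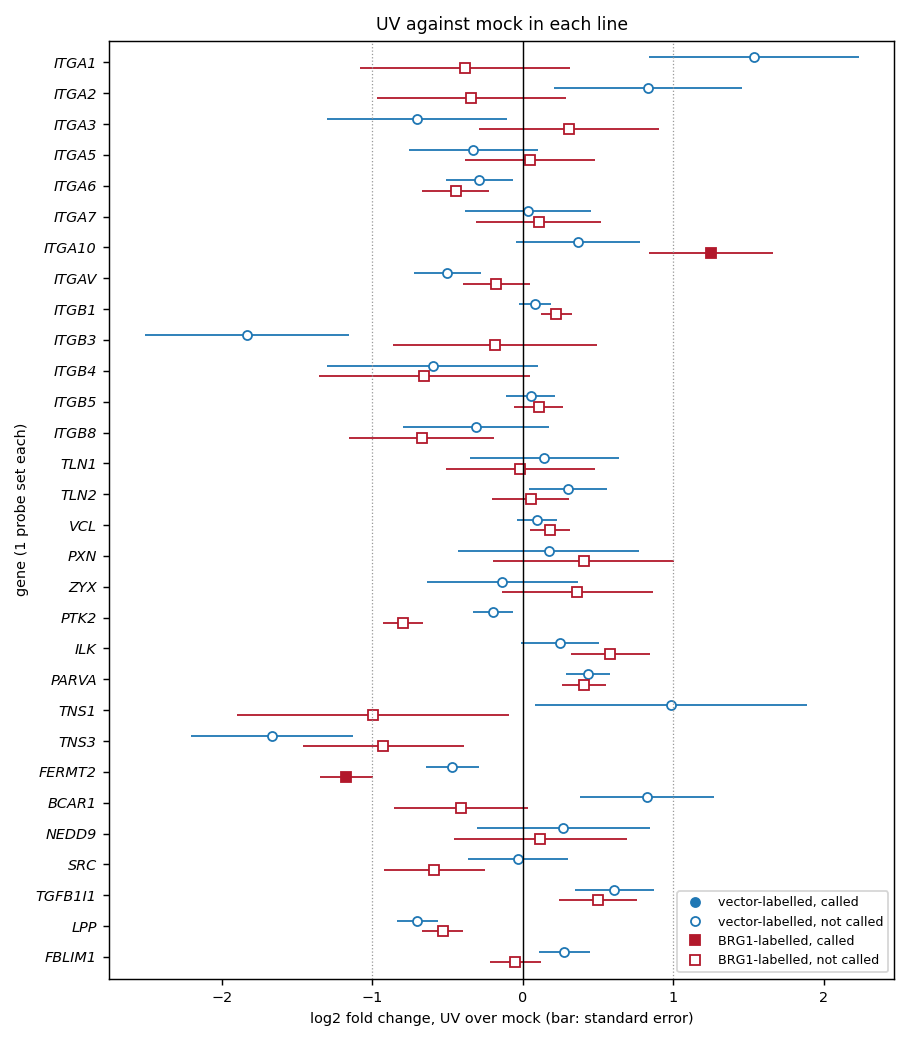
Log2 fold change of UV over mock for the 30 genes tested, in the vector-labelled (blue circles) and BRG1-labelled line (red squares), with standard errors as bars, filled symbols for called genes and dotted lines at a fold of 2. The filled symbols are those of ITGA10 at 1.25 and FERMT2 at -1.17 in the BRG1-labelled line.

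Longer genes had lower UV effects across the array, and 15 of the 30 genes are among the longest 25% of genes, from 69255 bases up. Over 13768 genes the Spearman correlation between gene length and the UV effect was -0.331 in the vector-labelled and -0.306 in the BRG1-labelled line, a description across genes, which share libraries and are not replicates. Over the 30 genes it was -0.0265 and -0.521. The 15 long genes, LPP, PTK2 and FERMT2 among them, had a median UV effect of -0.38 in the BRG1-labelled and 0.053 in the vector-labelled line, and the other 15 had 0.11 and 0.082. Over all genes of the longest 25% the medians were -0.21 in the BRG1-labelled and -0.26 in the vector-labelled line. The difference between the lines in the medians of the 15 long genes was not tested.

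The arrays numbered 3 stood apart from arrays 1 and 2 for some of these genes, a pattern seen in the data first. Array 3 was the highest in all 4 groups for 9 of the 30 genes, namely ITGA3, ITGA5, ITGA7, TLN1, VCL, PXN, ZYX, ILK and TGFB1I1, beside 17.6% of all genes. It was the lowest in all 4 groups for ITGA6 and FERMT2, beside 13%. The ratio of 3′ to 5′ control probe sets was 1.05 to 1.64 for GAPDH on arrays 3 and 0.932 to 1.07 on the others, and 1.45 to 2.57 against 1.21 to 1.62 for ACTB. Both upper ends are those of mock-treated vector-labelled array 3. The other arrays 3 had 1.05 to 1.25 for GAPDH and 1.45 to 1.59 for ACTB, the latter within the range of arrays 1 and 2. The part of these ratios in the results was not tested. The same array numbers lie in every group.

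**Figure D5:**
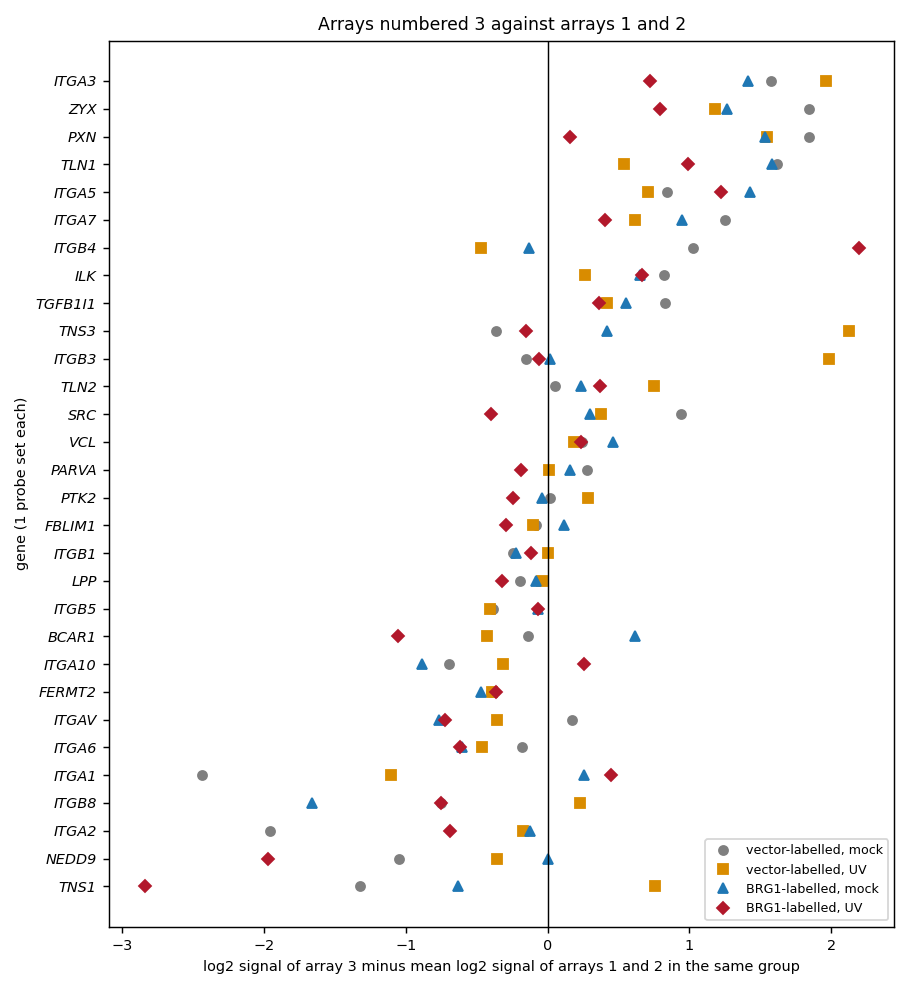
Log2 signal of array 3 minus the mean log2 signal of arrays 1 and 2 of the same group, for the 30 genes tested, with a symbol for each of the 4 groups. The symbols of ITGA3, PXN and ZYX, among others, lie right of 0 in every group, and those of ITGA6 and FERMT2, among others, lie left of 0 in every group.

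Among 65 other focal adhesion proteins, 54 were tested, of which 12 were higher and 1 lower in mock-treated BRG1-labelled cells and 12 and 2 after UV, beside 9.38% and 5.27% and then 9.85% and 6.86% of all genes. Of the 12, 4 in each comparison passed the filter only through the BRG1-labelled line. Their median log2 fold changes were 0.44 and 0.38. The largest fitted values were those of PALLD (palladin, an actin bundling protein), with 6.61 and 6.16, DLC1, with 6.25 and 6.00, MYLK (myosin light chain kinase), with 5.09 and 6.71, SVIL (supervillin), with 4.71 in mock-treated cells, and ARHGEF6, an exchange factor for Rac and Cdc42, with 4.55 after UV. Vector-labelled signals of PALLD, MYLK, SVIL and ARHGEF6 lay in part under the 40th percentile of their array. With such signals set to it, PALLD had 80.5-fold and 60.2-fold, MYLK 17.5-fold and 16.3-fold, SVIL 14.9-fold in mock-treated and ARHGEF6 8.55-fold in UV-treated cells. ENAH, an actin polymerization factor, was lower, with -1.07 and -1.15, and KANK1, which binds talin, was lower after UV with -1.69. With UV, 5 of the 54 fell in the vector-labelled line, beside 4.16% of all genes, and 6 in the BRG1-labelled line, beside 6.57%, and none was called higher, beside 0.66% and 0.609%.

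Among 30 integrin ligands, 16 were tested, of which 7 were higher and 2 lower in mock-treated and 6 and 2 in UV-treated BRG1-labelled cells, beside 9.38% and 5.27% and then 9.85% and 6.86% of all genes. Of those higher, 3 in each comparison passed the filter only through the BRG1-labelled line. The median log2 fold changes were 1.45 and 1.34. THBS1 (thrombospondin-1) had 7.22 and 7.91, TGFBI, a matrix protein, 6.84 and 6.82, the laminin chain LAMB1 6.21 and 7.71, and the microfibril protein FBN1 4.13 and 4.56. Of their vector-labelled signals, those of THBS1 and TGFBI were all under the 40th percentile of the array, as were most of LAMB1 and 1 of FBN1. With low signals set to it, THBS1 had 67.0-fold and 51.0-fold, TGFBI 20.0-fold and 20.2-fold, LAMB1 54.8-fold and 57.0-fold, and FBN1 17.5-fold and 20.4-fold. Periostin (POSTN), with mean signals of 60.1 and 5.36 in mock-treated cells and a log2 fold change of -2.87 after UV, 4.01-fold with the low BRG1-labelled signals set to the percentile, and CCN2, with -3.77 and -1.47, were lower in both. Of 9 other integrin subunits 3 were tested and none was called, although ITGAE passed the adjusted p in both comparisons with 0.56 and 0.65 (standard error 0.091), under the fold threshold.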

How the data were processed

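The authors hybridized total RNA from 12 samples to Affymetrix U133 Plus 2.0 arrays and used MAS at default settings, with a target of 125 per array; its version is not stated in what was read here. The deposited table holds signal intensities on a linear scale for 54675 probe sets, with no detection calls. The number of arrays limits the precision.

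Signals were taken to log2 without further normalization. Probe sets were assigned to genes by the array annotation, with symbols updated through a RefSeq gene table. A single gene was named for 41097 of them, several genes for 1801 and none for 11777. Probe sets with a signal at or above the array median on at least 3 arrays were tested. The fit used limma 3.58.1 in R 4.3.3 on all 12 arrays, with a mean for each group, a variance trend on signal, and Benjamini-Hochberg adjustment over 13784 genes. In the vector-labelled line mock and UV arrays of the same number deviated together (correlations of 0.108, 0.102 and 0.275). Arrays 1 and 2 did so across numbers as well (0.109 and 0.0950), while pairs of array 3 with them had -0.188 to -0.156. In that comparison the number thus set array 3 apart but not arrays 1 and 2 from each other. Values with the number as a replicate block are given where they change a call. The difference of UV effects was called on the adjusted p alone. The fit was tested on simulated data: of 100 genes changed by 1.5 on the log2 scale between the lines in mock-treated cells 90 were called, as were 13 of 13584 unchanged genes. The changed genes were drawn only from tested genes with a mean log2 signal over the median, and noise was drawn independently for each array. The simulation therefore does not describe calls of dimmer genes or deviations shared by array number. All 35 genes are named, and of the other lists up to 4 called genes with the largest changes in each comparison. The members and lists were chosen with earlier results of these data known. Alternatives, listed after the report, changed the filter, scaling, low signals, test, arrays in the fit and probe sets of a gene.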

Additional observations from a re-analysis of the deposited data

How the results depend on the processing

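Of the log2 fold changes of single genes under all alternatives, 3954 kept their side of the threshold, 33 newly passed it and 78 no longer passed it. Among genes called in the reported fit or the alternative, 0 reversed direction. Reversals of direction in genes called in neither were not counted. The test of the study's methods after Benjamini-Hochberg adjustment left 4 genes higher and 0 lower in mock-treated and 6 higher and 1 lower in UV-treated BRG1-labelled against vector-labelled cells, in place of 14, 1, 12 and 2, and 0 lower with UV in the BRG1-labelled line, in place of 1. Over all 13784 genes that adjusted test called 451 higher and 223 lower in mock-treated cells, in place of 1293 and 726. Between the UV-treated lines it called 593 and 352, in place of 1358 and 946. With UV in the BRG1-labelled line it called 155 of all genes lower, in place of 905. For the settings that follow no share of all genes is given, and the shares of the reported fit are no match for their counts. Without a fold threshold 2 of the 30 genes were lower in mock-treated cells, 1 was lower with UV in the vector-labelled line, in place of 0, and 3 in the BRG1-labelled line. Scaling to hybridization controls, which moved the median of all genes by -0.26 with UV in the vector-labelled and -0.39 in the BRG1-labelled line, gave 1 and 2 lower there, and moved the median by -0.15 between the UV-treated lines and -0.13 for the difference of UV effects. The call of ITGA10 with UV in the BRG1-labelled line, the only one higher there, went to 0 without a filter or with hybridization controls. It was also lost with log2 of the signal plus 16, with the compared arrays only and with p adjusted over all probe sets. The test of the methods, unadjusted or adjusted, did not call the gene. Nor did a fit without the arrays numbered 3, a setting chosen after the data had been seen. With the 75th percentile filter ITGA10 was not tested. Without the arrays numbered 3, 2 genes (TNS3 and ITGB3) were lower with UV in the vector-labelled line and the difference of UV effects was called for 1 gene (FERMT2). The titles give the arrays of a group the numbers 1 to 3. Deviations from the group means correlated at 0.0152 to 0.293 for the 18 pairs with the same number and -0.223 to 0.137 for the 36 others. In the vector-labelled line the same-number pairs of mock and UV arrays were all over 0.1, and in every other comparison at least 1 pair was not. Mock array 1 and UV array 2 of the vector-labelled line, which differ in number, also had 0.109. With the number as a replicate block, 1 gene (TNS3) was lower with UV in the vector-labelled line, 1 (FERMT2, -0.71, adjusted p = 0.00429 in limma) differed in its UV effect, and 15 (with TLN1) and 13 (with ZYX) genes were higher between the lines. Leaving out 1 array gave 1 to 2 genes lower in mock-treated cells, 0 to 2 lower with UV in the vector-labelled line and 0 to 1 higher in the BRG1-labelled line. The calls of PARVA were lost with the mean over its probe sets, those of PXN, BCAR1 and TNS1 under the test of the methods without adjustment, that of FBLIM1 with 16 added to the signal, quantile normalization, medians set equal or no arrays numbered 3, and that of ILK with quantile normalization, hybridization controls or no arrays numbered 3. The call of BCAR1 was also lost with no arrays numbered 3. The compared arrays alone and the test of the methods give no value for the difference of UV effects. Signals near or under the array median limit the folds of ITGA2, ITGA3, ITGB8, TNS1, TNS3 and ITGA10. The cause of these changes was not tested.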
